A study of Mus musculus with 12 samples.

Results

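The miR-29 family and the family of miR-148 and miR-152 (the miR-148 family) were followed as the 6 mature miRNAs cut from the 3′ arms of their hairpins, mmu-miR-29a-3p, mmu-miR-29b-3p, mmu-miR-29c-3p, mmu-miR-148a-3p, mmu-miR-148b-3p and mmu-miR-152-3p, written here without the species prefix. They were chosen by name, as miRNAs known to act on genes of DNA methyltransferases, and are 6 of the 1978 mature miRNAs counted in the study. The study sequenced small RNA of 2 kinds of mouse stem cell, the embryonic line E14 (ESC) and trophoblast stem cells (TSC), which give rise to the placental lineage and whose line the labels do not name. Each cell type was sampled as control cells, called WT in the labels, and as cells in an mTOR inhibited pause, mTOR being a kinase that promotes cell growth. The labels name no engineered allele in any group, and do not give the inhibitor, its dose, the length of the treatment or the culture medium. The question of the design is which miRNAs respond to this induced dormancy. Of the 3 samples labelled in each group, the third held the same value as the second at every miRNA and was counted with it as 1 sample, so n = 2 libraries per group and 8 in all. Nothing in the labels places the libraries in separate cultures, so p-values measure only the spread between these samples, which may be technical.

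A miRNA guides an Argonaute protein to messenger RNAs, mostly through its seed, the short stretch near its 5′ end that pairs with sites in 3′ untranslated regions (3′ UTRs), and the paired mRNA is repressed. The miR-29 family is known for sites in the mRNAs of Dnmt3a and Dnmt3b, the enzymes that place new DNA methylation, and of the Tet enzymes and Tdg, which take part in its removal. The miR-148 family is known for its action on Dnmt1, the enzyme that copies DNA methylation after replication. Both families are better known from differentiated tissues than from stem cells.

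The mature sequences are shown because members of a family share a seed and differ in few other bases, so that reads of close relatives must be told apart by those bases. They come from RefSeq (GRCm38.p6), where all 6 names matched, and are written 5′ to 3′ with the seed, bases 2 to 8, in capitals.
miR-29a-3p: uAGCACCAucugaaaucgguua
miR-29b-3p: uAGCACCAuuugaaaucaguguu
miR-29c-3p: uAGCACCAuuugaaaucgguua
miR-148a-3p: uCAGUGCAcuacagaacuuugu
miR-148b-3p: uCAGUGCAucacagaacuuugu
miR-152-3p: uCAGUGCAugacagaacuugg
Each seed was found in 3 of the names counted, those of its own family. Counted from 1 at the 5′ end, miR-29a-3p differed from miR-29c-3p by 1 substitution (C10U). miR-29b-3p differed from miR-29c-3p by 3 (A18G, G21U and U22A) over the 22 bases compared. miR-148a-3p differed from miR-148b-3p by C9U and U10C, and miR-148b-3p from miR-152-3p by C10G and U20G. The sources used here do not say how the authors' counting placed reads that end before these differences, so the split within a family is uncertain to that extent.

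The miR-29 family comes from 2 clusters in the GRCm38 genome. Mir29a (chr6:31062660-31062747) and Mir29b-1 (chr6:31063023-31063093) lie 275 bases apart on the minus strand. Mir29b-2 (chr1:195037040-195037120) and Mir29c (chr1:195037547-195037634) lie 426 bases apart on the plus strand. In the GENCODE M21 annotation Mir29b-2 and Mir29c fall in exons of the noncoding transcript A330023F24Rik, opposite an exon of Cd46. Mir29b-1 falls in an exon of the lincRNA Gm27019, and no gene other than its own was annotated over Mir29a. miR-29b-3p is thus the product of 2 hairpins with the same mature sequence, and each other member of 1. Mir148a (chr6:51269812-51269910, minus strand) lay outside other annotated genes. Mir148b (chr15:103285125-103285221, plus strand) lay in an intron of Copz1 and Mir152 (chr11:96850393-96850465, plus strand) in an intron of Copz2, a pair of genes for subunits of the coat of transport vesicles.

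Depth was low and uneven. The total count per library was 13607 to 19266 in the control ESC libraries, 61749 to 73574 in the paused ESC libraries, 18725 to 115492 in the control TSC libraries and 23652 to 30487 in the paused TSC libraries. Levels are given as CPM, the count relative to the library total, after scaling with TMM factors (trimmed mean of M-values). The limit that a count of 0 allows, 3 counts, ranged from 26.0 to 220 CPM between the deepest and the shallowest library before that scaling, and such limits cover counting error only. A miRNA was tested where at least 2 libraries reached about 369 CPM, which 206 did. miR-322-5p and the other trophoblast markers of a list of 6 took 10.7 to 11.6% of the counts of control TSC and 6.17 to 8.17% of paused TSC. They took 0.903 to 1.01% in the control ESC libraries and 0.111 to 0.123% in the paused ones. Most of the list's 174 and 138 counts in control ESC were of miR-669f-3p (83 and 68) and miR-466f-3p (76 and 54). With pausing in ESC miR-669f-3p (log2 fold change -4.22 ± 0.42; edgeR adjusted p = 5.08e-20) and miR-466f-3p (-4.04 ± 0.43; edgeR adjusted p = 5.89e-18) fell. Between control ESC and control TSC miR-466f-3p did not pass the test (-0.32 ± 0.36; edgeR adjusted p = 0.411). The part of these miRNAs in the members' changes in ESC was not tested. The list of 6 ESC markers took 8.61 to 9.25% of the counts in the control ESC libraries and 11.6 to 12.4% in the paused ones, but also 6.66 to 7.24% in the control TSC libraries and 7.81 to 7.98% in the paused TSC libraries. Of this list miR-302a-3p, miR-302b-3p, miR-302d-3p and miR-367-3p had 0 to 3 counts each in the paused ESC libraries. In control ESC the same 4 markers had 2 to 20 counts each, so these ESC markers were near 0 in the deeper, paused libraries.

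All 6 members had counts somewhere, from 18 for miR-29b-3p to 822 for miR-29a-3p over the 8 libraries, and 5 passed the filter. miR-29b-3p did not. A member passed where either cell type or state alone was high, so counts over the tested members describe those 5 and not the families. Calls are those of edgeR's quasi-likelihood test at an adjusted p (Benjamini-Hochberg over all 206) under 0.05. In ESC, 2 members rose with pausing (miR-29a-3p and miR-148a-3p) and 0 fell, where 27.7% of all tested miRNAs were called, 8.25% as higher and 19.4% as lower. In TSC, 0 members were called with pausing, where 18.9% of all were called, 1.94% as higher. With no adjustment, 0 members had p under 0.05 there, and DESeq2 also called 0. Between the control cells, 3 members were lower in ESC than in TSC and 1 was higher, where 74.3% of all were called, 40.8% as lower and 33.5% as higher. Between the paused cells, 3 were lower in ESC and 0 were higher, where 76.7% of all were called, 39.3% as lower and 37.4% as higher.

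**Figure D1:**
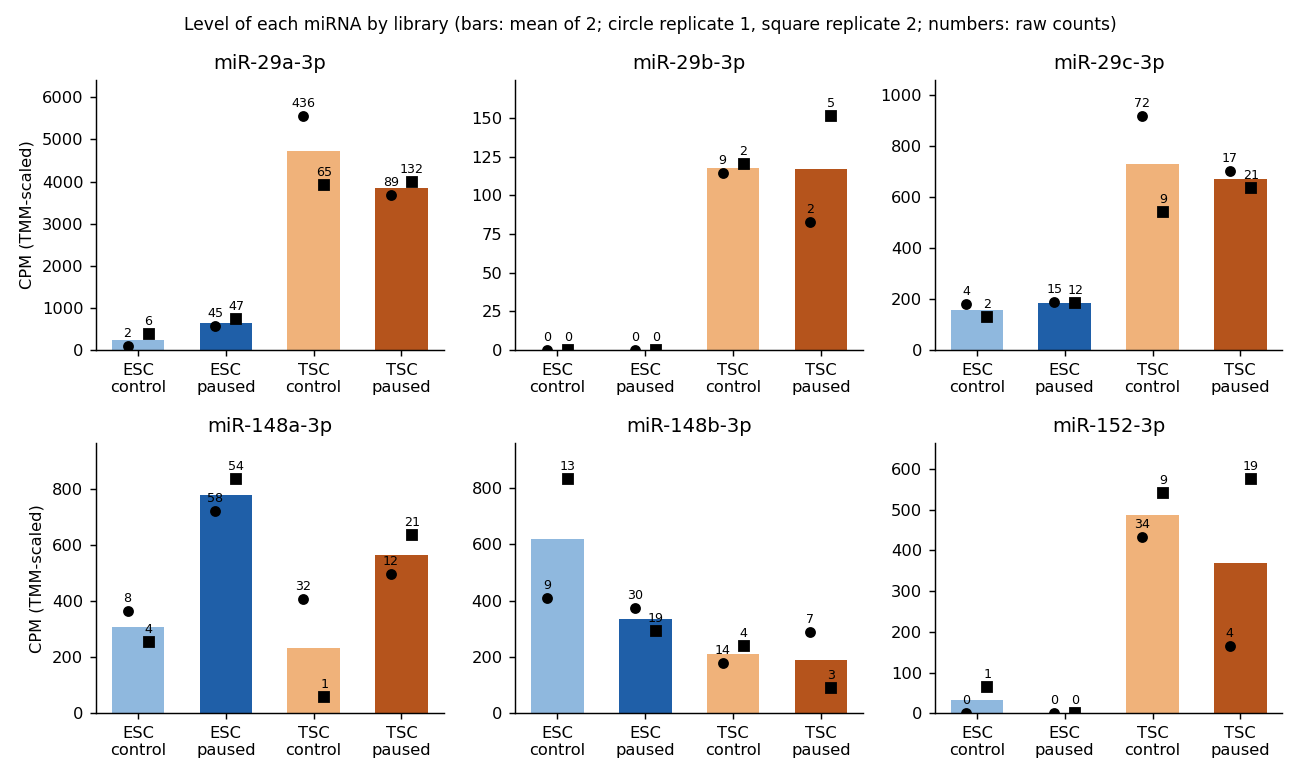
Level of each miRNA in each library in TMM-scaled CPM on linear axes, 1 panel per miRNA with its own scale (bars: mean of 2 libraries; circles: replicate 1; squares: replicate 2; numbers: raw counts). miR-29a-3p stands between 3679 and 5554 CPM in TSC and between 91.1 and 727 CPM in ESC, and miR-29b-3p has 0 counts in every ESC library.

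miR-29a-3p was the most abundant member in TSC and lower in ESC in both states. It stood at 5554 and 3912 CPM in the control TSC libraries (436 and 65 counts) and at 3679 and 3992 CPM in the paused TSC libraries (89 and 132 counts). In control ESC it stood at 91.1 and 383 CPM (2 and 6 counts) and in paused ESC at 561 and 727 CPM (45 and 47 counts). All 4 TSC libraries lay above all 4 ESC libraries, and the paused ESC libraries lay above the control ESC libraries. By mean level it ranked 38 of the 1978 miRNAs in TSC of either state, 96 in paused ESC and 162 in control ESC. The order of the group means was control TSC (4733 ± 1161 CPM, SD, n = 2), paused TSC (3835 ± 221), paused ESC (644 ± 117) and control ESC (237 ± 207), in which the neighbouring TSC groups overlapped.

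Between the control cells miR-29a-3p was 21.9-fold lower in ESC than in TSC (log2 fold change -4.45 ± 0.52, SE; edgeR adjusted p = 5.34e-16). The median over all tested miRNAs in that comparison was -0.23. Between the paused cells it was 5.96-fold lower in ESC (log2 fold change -2.58 ± 0.38; edgeR adjusted p = 8.75e-11), beside a median of 0.01. Both calls held in all 19 alternatives. In bulk RNA a lower share of a cell type in a culture and less of a miRNA per cell cannot be told apart.

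With pausing miR-29a-3p rose 2.93-fold in ESC (log2 fold change 1.55 ± 0.58; edgeR adjusted p = 0.0311), beside a median of -0.03 over all miRNAs. The control level rests on 8 counts, and the change kept its sign in all 19 alternatives with log2 values from 1.09 to 3.11. It missed the threshold without the first control ESC library (1.09, adjusted p = 0.308) and without the second paused one (1.57, adjusted p = 0.0600), and was 3.11 without the second control library. It also missed it with TMM factors from all but the miR-290 cluster (adjusted p = 0.0735). Depth moved with the state in ESC, since the paused libraries held 61749 to 73574 counts and the control libraries 13607 to 19266. The part of depth in the result was not tested.

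In TSC the same miRNA did not pass the test with pausing (log2 fold change -0.32 ± 0.35; edgeR adjusted p = 0.599; 95% interval -1.01 to 0.36), and the libraries of the groups overlapped. The median over all miRNAs was -0.39 in this comparison and 0.08 when libraries were scaled by total count alone, under which miR-29a-3p came to 0.15. Its sign in TSC turned in 8 of 19 alternatives, among them other scaling, no filter and libraries left out, so its direction there is not settled. The difference of the pause effects, ESC minus TSC, was 1.87 ± 0.68 on the log2 scale for miR-29a-3p (edgeR adjusted p = 0.0283), where 26.2% of all miRNAs were called. It was the 1 member called for that difference. The call held in 6 of 18 alternatives, among them those without the second control library of ESC or of TSC, and was lost without any 1 of the other 6 libraries (log2 values of 1.08 to 1.87, the lowest without the first control ESC library).

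**Figure D2:**
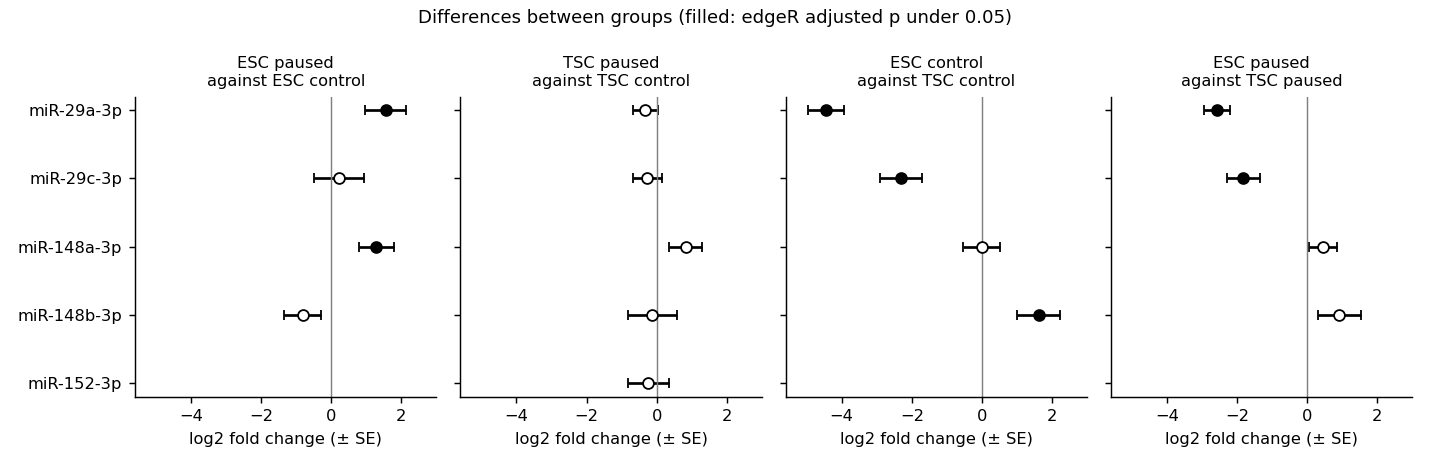
Log2 fold change (± SE) of each tested member in the pause comparison of each cell type and in the cell type comparison of each state (filled: edgeR adjusted p under 0.05). miR-152-3p is drawn only for TSC, since ESC held 0 or 1 counts of it, and miR-29a-3p is the 1 member filled in 3 of the 4 panels.

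miR-29c-3p, which shares all but 1 base with miR-29a-3p, was higher in TSC as well but did not pass the test with pausing. Its levels were 182 and 128 CPM in the control ESC libraries (4 and 2 counts), 187 and 186 CPM in the paused ESC libraries (15 and 12 counts), 917 and 542 CPM in the control TSC libraries (72 and 9 counts) and 703 and 635 CPM in the paused TSC libraries (17 and 21 counts). All 4 TSC libraries lay above all 4 ESC libraries. Between the control cells it was 4.94-fold lower in ESC (log2 fold change -2.31 ± 0.60; edgeR adjusted p = 0.0003), a call lost without the first control TSC library (-1.51, adjusted p = 0.113). Between the paused cells it was 3.53-fold lower (log2 fold change -1.82 ± 0.46; edgeR adjusted p = 0.000165), and 18 of 19 alternatives kept the call. In DESeq2 neither call was made (adjusted p = 0.0872 and 0.0828). Since miR-29c-3p passed the filter only through TSC libraries, its calls between the cell types are those of a member selected where TSC was high.

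With pausing, miR-29c-3p came to 0.22 ± 0.71 on the log2 scale in ESC (edgeR adjusted p = 0.830; 95% interval -1.17 to 1.62). In TSC it came to -0.26 ± 0.41 (edgeR adjusted p = 0.714; 95% interval -1.07 to 0.55), a sign that turned in 12 of 19 alternatives, total count scaling among them. The difference of the pause effects was 0.49 ± 0.82 (edgeR adjusted p = 0.719). The interval in ESC includes the size measured there for miR-29a-3p, and a difference between the 2 miRNAs was not tested.

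miR-29b-3p was found only in TSC libraries. The 4 ESC libraries held 0 counts, the control TSC libraries 9 and 2 counts (115 and 120 CPM) and the paused TSC libraries 2 and 5 counts (82.7 and 151 CPM). A bound was computed with ESC taken at 3 counts per group, the limit a count of 0 allows, and the TSC count as observed. By this bound miR-29b-3p was 1.45-fold lower in control ESC and 5.90-fold lower in paused ESC than in TSC of the same state. The exact 95% counting interval, which also covers error in the TSC count, began at 0.992-fold in control cells and 3.65-fold in paused cells. Equal levels in control cells were thus not excluded. Among mature miRNAs made from 1 hairpin 536 of 1626 (33.0%) had a count in some library, and among those made from 2 or more 8 of 53 (15.1%) had. The sources used here do not say whether reads that match both miR-29b hairpins were kept, and the part of this in its low level was not tested.

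miR-148a-3p rose with pausing in ESC, and its TSC values were too scattered to place. It stood at 365 and 256 CPM in the control ESC libraries (8 and 4 counts), at 723 and 835 CPM in the paused ESC libraries (58 and 54 counts), at 408 and 60.2 CPM in the control TSC libraries (32 and 1 counts) and at 496 and 635 CPM in the paused TSC libraries (12 and 21 counts). Both paused ESC libraries lay above both control ESC libraries, and both paused TSC libraries above both control TSC libraries. The group means fell in the order paused ESC (779 ± 79.2 CPM, SD, n = 2), paused TSC (566 ± 98.3), control ESC (310 ± 77.0) and control TSC (234 ± 246), and the 2 control groups overlapped.

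In ESC the rise of miR-148a-3p was 2.43-fold (log2 fold change 1.28 ± 0.50; edgeR adjusted p = 0.0374). Its sign held in all 19 alternatives, from 1.19 to 1.95, but the call held in 9 of them. It was lost without the second control ESC library (adjusted p = 0.110), without the first paused one (0.0934), without the second paused one (0.0594) and in DESeq2 (0.211). Among the other losses were those with total count scaling (0.0639), with TMM factors from all but the miR-290 cluster (0.0573) and with the filter at 10 CPM (0.0593).

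**Figure D3:**
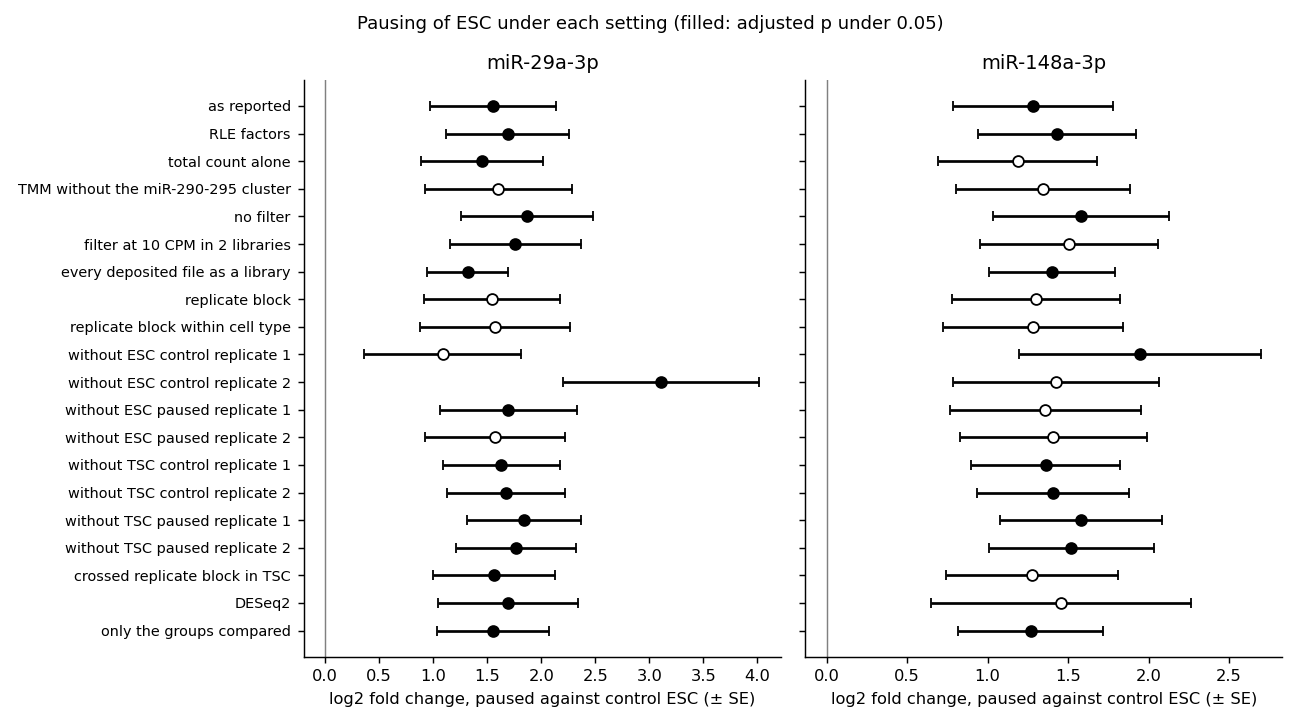
Log2 fold change (± SE) of miR-29a-3p and miR-148a-3p for paused against control ESC as reported and under each of 19 alternatives (filled: adjusted p under 0.05). Every value lies above 0, and 14 alternatives for miR-29a-3p and 9 for miR-148a-3p pass the threshold.

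In TSC the value for miR-148a-3p was 0.83 ± 0.47 (edgeR adjusted p = 0.226; 95% interval -0.09 to 1.76). It passed the test with total count scaling (1.40, adjusted p = 0.0317) and without the first control TSC library (3.41, adjusted p = 0.0123), where the 1 control library left held 1 count. The difference of the pause effects was 0.45 ± 0.70 (edgeR adjusted p = 0.685; 95% interval -0.92 to 1.82). Between ESC and TSC it did not pass the test in control cells (-0.01 ± 0.53; edgeR adjusted p = 0.987) or in paused cells (0.44 ± 0.40; edgeR adjusted p = 0.310). The sign in control cells turned in 17 of 18 alternatives, up to 2.56 (adjusted p = 0.0465) without the first control TSC library.

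miR-148b-3p was higher in ESC than in TSC among control cells. Its levels were 410 and 831 CPM in the control ESC libraries (9 and 13 counts), 374 and 294 CPM in the paused ESC libraries (30 and 19 counts), 178 and 241 CPM in the control TSC libraries (14 and 4 counts) and 289 and 90.7 CPM in the paused TSC libraries (7 and 3 counts). Control ESC lay above control TSC and above paused ESC, and paused ESC lay above paused TSC, with no overlap in these 3 comparisons. The difference in control cells was 3.06-fold (log2 fold change 1.61 ± 0.60; edgeR adjusted p = 0.0117). That call held in 15 of 18 alternatives (largest adjusted p = 0.331). Among the losses were those without the second control ESC library (1.30, adjusted p = 0.171) and without the first control TSC library (1.53, adjusted p = 0.0939). In paused cells the value was 0.91 ± 0.60 (edgeR adjusted p = 0.157), which passed in 5 of 19 alternatives.

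With pausing miR-148b-3p did not pass the test in either cell type. In ESC the value was -0.82 ± 0.52 (edgeR adjusted p = 0.261; 95% interval -1.84 to 0.20), and 0.07 without the second control ESC library. In TSC it was -0.12 ± 0.70 (edgeR adjusted p = 0.938), with a sign that turned in 11 of 18 alternatives. The difference of the pause effects was -0.70 ± 0.88 (edgeR adjusted p = 0.600).

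Found mostly in TSC here, miR-152-3p passed the filter only through TSC libraries. Its calls between the cell types are thus those of a member selected where TSC was high. miR-152-3p had 0 and 1 counts in control ESC (0 and 63.9 CPM) and 0 counts in both paused ESC libraries. In control TSC it had 34 and 9 counts (433 and 542 CPM) and in paused TSC 4 and 19 counts (165 and 575 CPM). Each TSC library lay above every ESC library. From pooled counts the TSC level was 17.0 times that of ESC in control cells (1 against 43 counts; 95% counting interval 2.89 to 687; edgeR adjusted p = 0.0011). In paused cells miR-152-3p was at least 19.4-fold lower in ESC, with ESC taken at 3 counts (0 against 23 counts; edgeR adjusted p = 4.06e-08). The exact 95% counting interval began at 14.5-fold. The call in control cells held in 14 of 18 alternatives (largest adjusted p = 0.223). Among the losses were those in DESeq2 (adjusted p = 0.0612) and without the first control ESC library (adjusted p = 0.123). With pausing the value in TSC was -0.24 ± 0.58 (edgeR adjusted p = 0.839), and in ESC 0 against 1 counts allow no fold.

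Over the tested members the median log2 value was -2.31 for control ESC against control TSC and -1.82 for the paused cells, against -0.23 and 0.01 over all miRNAs. Both are the values of miR-29c-3p, which, like miR-152-3p, passed the filter only through the TSC libraries. These medians are thus partly set by the filter and describe the tested members alone. Both medians stayed as they were with miR-152-3p entered at its pooled ratio or bound. For pausing in ESC the median over the 4 members with a fold was 0.75, against -0.03 over all, and in TSC it was -0.24 over 5, against -0.39. In ESC the paused and control libraries did not overlap for 4 of 5 members (3 higher and 1 lower), where 68.4% of all miRNAs did not overlap. In TSC they did not overlap for 1 of 5, miR-148a-3p, which was higher in paused cells. There 48.5% of all did not overlap, 12.6% as higher and 35.9% as lower in paused cells. Control ESC and control TSC did not overlap for 4 of 5 members and paused ESC and paused TSC for 5 of 5 (3 lower in ESC), where 84.5% and 90.8% of all did not, the latter 45.6% as lower in ESC.

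As a share of all counts, the miR-29 family made up 0.0311 and 0.0588% in the control ESC libraries, 0.0816 and 0.0955% in the paused ESC libraries, 0.448 and 0.406% in the control TSC libraries and 0.457 and 0.518% in the paused TSC libraries. The exact 95% binomial intervals of the pooled counts were 0.0233 to 0.0714% in the control ESC libraries, 0.0729 to 0.105% in the paused ESC libraries, 0.407 to 0.479% in the control TSC libraries and 0.434 to 0.554% in the paused TSC libraries. The 4 TSC libraries thus held a larger share than the 4 ESC libraries, and the paused ESC libraries a larger share than the control ones. The miR-148 family made up 0.0882 and 0.132% in the control ESC libraries, 0.120 and 0.118% in the paused ESC libraries, 0.0693 and 0.0748% in the control TSC libraries and 0.0972 and 0.141% in the paused TSC libraries. In ESC the summed share of miR-148 in paused cells lay inside the range of the control cells.

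**Figure D4:**
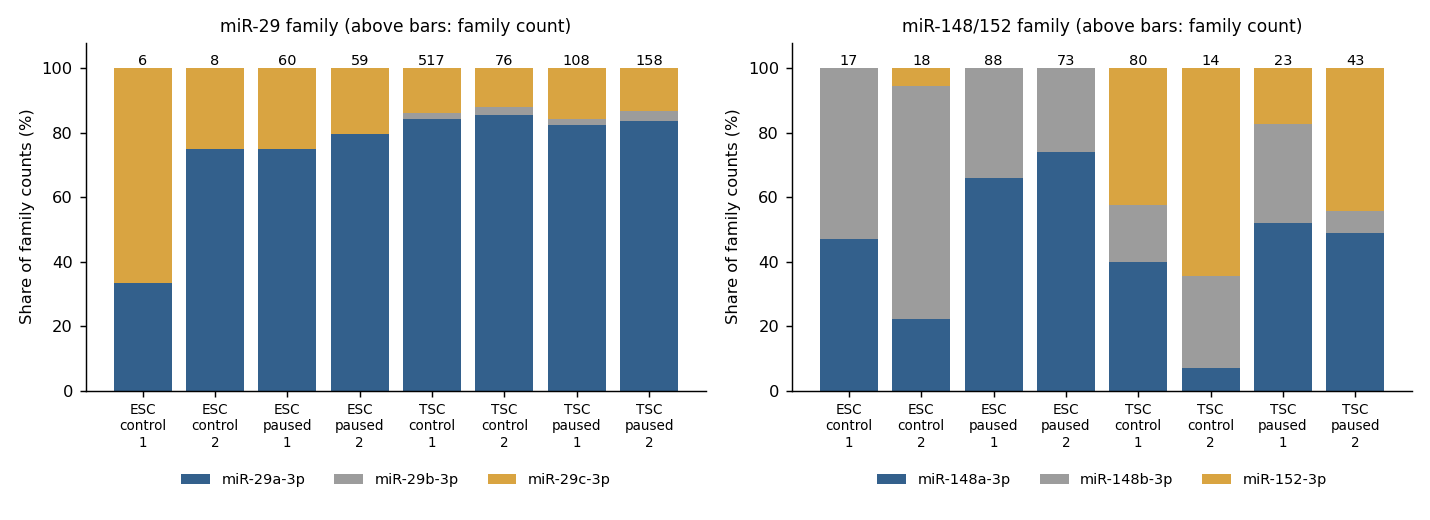
Share of each family's counts (%) taken by each member in each library, stacked to the whole, with the family count above each bar. miR-29a-3p takes 82.4 to 85.5% of the miR-29 counts in TSC, and miR-148a-3p takes 65.9 and 74.0% of the miR-148 counts in paused ESC.

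Within miR-29, miR-29a-3p held 82.4 to 85.5% of the family's counts in the 4 TSC libraries and 75% and 79.7% in the paused ESC libraries. In control ESC it held 2 of 6 and 6 of 8 counts, too few to place. miR-29c-3p held 11.8 to 15.7% in TSC and 25% and 20.3% in the paused ESC libraries.

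The leading member of miR-148 was not the same in every group. miR-148a-3p held 47.1 and 22.2% of the family's counts in control ESC and 65.9 and 74.0% in the paused ESC libraries, while miR-148b-3p held 52.9 and 72.2% and then 34.1 and 26.0%. The larger share was thus that of miR-148b-3p in control ESC and of miR-148a-3p in paused ESC. In the first control ESC library the lead was 9 against 8 counts, too close to place. In TSC miR-152-3p held 42.5 and 64.3% in control cells and 17.4 and 44.2% in paused cells, where miR-148a-3p held 52.2 and 48.8%. With 14 to 88 counts per library these shares carry wide counting error. The exact 95% interval of the pooled miR-148a-3p share was 19.1 to 52.2% in the control ESC libraries and 61.8 to 76.6% in the paused ESC libraries.

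The other arms of the same hairpins were rare, as is usual for passenger strands. miR-29a-5p had 19 counts over all libraries, 2.26% of the counts of its hairpin (exact 95% interval 1.37 to 3.51%), and 12 of them were in the first control TSC library. miR-29c-5p had 6 counts, miR-29b-1-5p, miR-148b-5p and miR-152-5p had 1 each, and miR-29b-2-5p and miR-148a-5p had 0. None of the 7 passed the filter.

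The tested miRNAs outside the families with the most similar profile were ranked by Pearson's r of log2 CPM over the 8 libraries, which share 2 cell types and uneven depth, so r is a description of these libraries. For miR-29a-3p these were miR-27a-3p (0.987), miR-296-3p (0.958) and miR-322-3p (0.956). For miR-29c-3p they were miR-23a-3p (0.991), miR-22-3p (0.988) and miR-101a-3p (0.976), and for miR-152-3p miR-362-3p (0.958), miR-322-5p (0.953) and miR-96-5p (0.952). For miR-148a-3p they were miR-423-3p (0.921), miR-200c-3p (0.860) and miR-15b-3p (0.857), and for miR-148b-3p miR-290a-3p (0.907), miR-142a-5p (0.839) and miR-377-3p (0.838). Between members, r was 0.913 for miR-29a-3p and miR-29c-3p, and 0.871 for miR-29a-3p and miR-152-3p. It was -0.169 for miR-148a-3p and miR-148b-3p, and -0.450 for miR-148a-3p and miR-152-3p. The profiles of miR-29 were thus closer to that of miR-152-3p than the members of miR-148 were to each other.

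The seed matches in genes of DNA methylation were located because the families were chosen as regulators of Dnmt genes. The longest annotated 3′ UTR of each gene was searched on the transcript strand for TGGTGCT, the match to the miR-29 seed, and for TGCACTG, the match to the miR-148 seed, which shares TGCACT with the match of the miR-130 family. The sites in the Dnmt genes are shown with 22 bases of GRCm38 sequence on the transcript strand and the match in capitals, and each line gives the place of the match.
Dnmt3a, chr12:3908572-3908578: tcccgacttcataaTGGTGCTt
Dnmt3a, chr12:3908999-3909005: catacaaaatgtacTGGTGCTt
Dnmt3a, chr12:3910835-3910841: gcctcagctgggccTGGTGCTc
Dnmt3a, chr12:3911405-3911411: ccaggggaggtagcTGGTGCTa
Dnmt3a, chr12:3911474-3911480: gcggggtcccaagcTGGTGCTa
Dnmt3b, chr2:153686627-153686633: agagtagcccggcaTGGTGCTc
Dnmt1, chr9:20907492-20907498: cccagagccccacgTGCACTGa
Dnmt3a held 5 miR-29 matches in 6696 bases, where 45.9% of 3′ UTRs within 20% of that length held at least 1 and 0.813% held as many. Dnmt3b held 1 in 1331 bases, where 12.0% of like length held 1 or more. Dnmt1 held 1 miR-148 match in 312 bases, 23 bases into the 3′ UTR, where 3.03% of like length held any. Dnmt3l, the cofactor of the enzymes that place new methylation, held neither match.

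Of the genes of methylation removal, Tet1 held 7 miR-29 matches, Tet2 5, Tet3 8 and Tdg 3, counts that 0.337%, 0.0454%, 0.138% and 0.215% of 3′ UTRs of like length reached. These shares, like those of the Dnmt genes, count the gene itself. For Tet1, Tet2 and Tet3 no other 3′ UTR of like length reached the count. Tdg also held 2 miR-148 matches, which overlap by 2 bases, and no other gene of the 8 searched held one beside Dnmt1. Over all 20996 annotated 3′ UTRs, 13.1% held a miR-29 match and 12.6% a miR-148 match. A match describes sequence only. The mRNAs of these genes were not measured here.

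**Figure D5:**
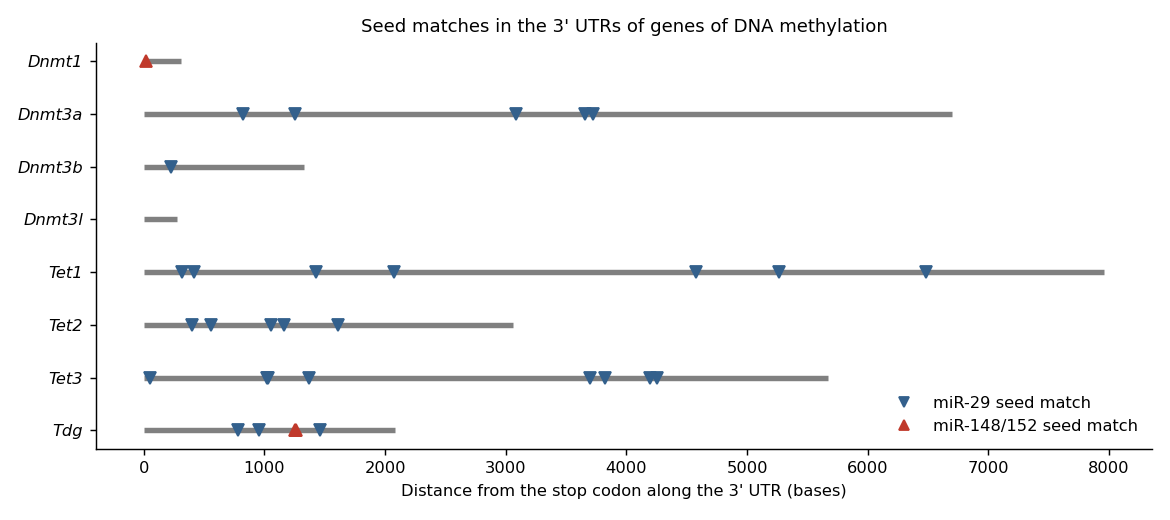
Place of each seed match along the 3′ UTR of 8 genes of DNA methylation, in bases from the stop codon (grey bars: the 3′ UTR; blue: miR-29; red: miR-148). Tet3 has 8 miR-29 matches and Tdg 2 miR-148 matches, of which close pairs overlap in the drawing, and the 1 match in Dnmt1 lies at base 23.

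Of 10 other miRNAs known to act on Dnmt genes, miR-143-3p and miR-145a-5p of which are also fibroblast markers, 8 were tested. With pausing in ESC 0 of them were called in edgeR, with 1 at an unadjusted p under 0.05, and 0 in DESeq2. Of all tested miRNAs 27.7% were called there. In TSC 1 fell, miR-203-3p (log2 fold change -2.40 ± 0.42; edgeR adjusted p = 5.23e-07), which had 241 and 40 counts in control and 13 and 17 in the paused TSC libraries. With no adjustment, 5 of the 8 had p under 0.05 in TSC, miR-342-3p as higher (log2 fold change 1.23 ± 0.57) and the others as lower. The share of all tested miRNAs at that unadjusted threshold is not given here, so this count has no background beside it. At the adjusted threshold 18.9% of all tested miRNAs were called in TSC, 17% as lower. Between the control cells 2 of the 8 were higher in ESC (miR-342-3p and miR-377-3p) and 3 lower (miR-203-3p, miR-101a-3p and miR-126a-3p). Between the paused cells 3 were higher and 4 lower. These counts stand beside 74.3% of all tested miRNAs called between the control cells and 76.7% between the paused cells (37.4% as higher and 39.3% as lower).

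Of 3 miRNAs known to act on Tet genes, 2 were tested, and the third, miR-26a-5p, had 0 counts in every library. miR-22-3p was lower in ESC in both states (log2 fold change -3.61 ± 0.40 in control and -3.12 ± 0.36 in paused cells; edgeR adjusted p = 2.78e-17 and 1.11e-16). miR-26b-5p had 1 and 0 counts in control ESC and 31 and 34 in the paused ESC libraries, and was called as higher (edgeR adjusted p = 0.00086), a call that DESeq2 did not make. Between the control cells miR-26b-5p was called as lower in ESC (1 against 30 counts; edgeR adjusted p = 0.0045). Between the paused cells it was not called (edgeR adjusted p = 0.0895). Of the miR-130 family, whose seed match overlaps that of miR-148, 4 of 5 were tested and 3 fell with pausing in ESC, miR-301a-3p (log2 fold change -1.89 ± 0.34), miR-130a-3p (-1.31 ± 0.35) and miR-301b-3p (-1.33 ± 0.44; edgeR adjusted p = 7.53e-07, 0.0013 and 0.0146). DESeq2 called 1 of them. In this comparison 19.4% of all tested miRNAs were called as lower by edgeR. The summed share of the miR-130 family was 1.31 to 1.52% in the control ESC libraries and 0.486 to 0.595% in the paused ESC libraries, above that of miR-148 in every ESC library.

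Markers of other cells moved with some of these comparisons. The list of 10 fibroblast miRNAs, cells on which stem cells are often grown, took 0.0882 to 0.114% of the counts in control ESC, 0.0923 to 0.118% in the paused ESC libraries, 0.0427 to 0.0727% in the control TSC libraries and 0.0164 to 0.0465% in the paused TSC libraries. Of its markers 2 to 8 were at 0 in each library, and miR-199a-3p and miR-199a-5p were at 0 in all 8. Most of the list's counts were of miR-143-3p and miR-145a-5p. miR-199b-5p and miR-214-3p had 0 counts in ESC, 7 each in the first control TSC library and 0 to 2 each in the other TSC libraries. Summed fibroblast markers were higher in ESC, the cells in which miR-29a-3p, miR-29c-3p and miR-152-3p were lower. The part of fibroblasts in those differences was not tested. The list of 7 blood miRNAs took 0.893 to 1.11% of the counts in control ESC, 0.483 to 0.569% in the paused ESC libraries and at most 0.0130% in TSC, with miR-223-3p, miR-451a and miR-486a-5p at 0 in every library. Its tested members did not move together with pausing in ESC. miR-150-5p rose (54 and 22 counts in the control and 380 and 279 in the paused ESC libraries; log2 fold change 1.20 ± 0.38; edgeR adjusted p = 0.00813), while miR-142a-3p (-3.86 ± 0.45; edgeR adjusted p = 2.27e-15) and miR-142a-5p (-4.25 ± 0.43; edgeR adjusted p = 6.74e-20) fell. The part of these miRNAs in the changes of miR-29a-3p and miR-148a-3p in ESC was not tested. Neural, endoderm and liver, and muscle markers took at most 0.0127%, 0.0294% and 0.00606% of any library. Mature miRNAs made from 2 or more hairpins had a count less often than those made from 1 (15.1% against 33.0%). The part of this in the markers at 0, here and in the fibroblast and blood lists, was not tested. A 0 among these markers is thus not a measure of how few such cells there were.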

How the data were processed

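Small RNA was sequenced from 4 groups with the SMARTer smRNA-seq kit, per the labels' protocols. The authors deposited raw counts per mature miRNA, and the submitters' processing notes name the build GRCm38. How reads were aligned, assigned to miRNAs and treated where they match more than 1 locus is not given in the sources used here. The members and the lists of other miRNAs were chosen with earlier results of these data known.

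Files with identical values were used as 1 library, which left 8. Counts were fitted with edgeR 4.0.16 (R 4.3.3), with TMM scaling, filterByExpr (minimum count 10), 1 mean per group over all 4 groups, and two-sided quasi-likelihood tests adjusted by Benjamini-Hochberg over 206 miRNAs, at a threshold of 0.05. The common dispersion was 0.0456, with 4 residual degrees of freedom, and each miRNA's own spread was replaced by the trend over all. SE is the log2 fold change divided by the root of F. Total counts of 13607 to 115492 set the precision. The scripts were tested on simulated data.

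All members and the other arms of their hairpins are named. Called members of other lists are named up to 4 per list by lowest adjusted p, and the 3 miRNAs with the highest r for each tested member. Where a group held 0 counts a fold is a bound computed with 3 counts in that group, and with 1 to 3 counts a ratio with its interval. Alternatives were other scalings, other filters, DESeq2 1.42.0, every deposited file as a library, only the groups compared, replicate blocks and each library left out. Hairpin sequences are RefSeq's, and 3′ UTRs GENCODE M21's.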

Additional observations from a re-analysis of the deposited data

Results flagged for a closer look

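The response to pausing differed between ESC and TSC, by the interaction test of edgeR, for 26.2% of all tested miRNAs. The 6 given first are those called among the members, the Dnmt and Tet lists, the miR-130 family and a list sharing the miR-290 seed. Values are the pause effect in ESC minus that in TSC on the log2 scale. For miR-29a-3p it was 1.87 (edgeR adjusted p = 0.0283), from a rise in ESC and no call in TSC. For miR-130a-3p it was -1.90 (adjusted p = 0.000676) and for miR-301a-3p -1.75 (adjusted p = 0.00172), both of which fell in ESC and were not called in TSC. For miR-203-3p it was 3.30 (adjusted p = 0.00289), which fell in TSC and was not called in ESC, where control cells held 3 counts. For miR-294-3p it was 1.06 (adjusted p = 0.0472), called in neither cell type alone and in 6 of 18 alternatives for the difference. For miR-26b-5p it was 4.40 (adjusted p = 0.00374), a fitted value that depends on the prior count, since control ESC held 1 count. Of the trophoblast markers, miR-466f-3p (-3.82; adjusted p = 9.14e-10) and miR-669f-3p (-3.43; adjusted p = 8.83e-09) were called too. Both fell in ESC and were not called in TSC. Of the blood markers miR-150-5p was called (5.38; adjusted p = 0.0283), in 7 of 18 alternatives, where paused TSC held 0 counts.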

How the results depend on the processing

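Of the members called with pausing in ESC (2 as reported), 1 was called with total count scaling, the filter at 10 CPM or DESeq2, and 0 with TMM factors from all but the miR-290 cluster. In TSC (0) it was 1 with total count scaling or with every file as a library. For the difference of pause effects (1) it was 0 with total count scaling, TMM without the cluster, no filter or DESeq2. For control ESC against control TSC (4) it was 2 in DESeq2 and 1 with only the groups compared, where 1 member passed the filter. For the paused cells (3) it was 5 with median-of-ratios (RLE) factors or TMM without the cluster, 6 with the filter at 10 CPM and 2 in DESeq2. With single libraries left out, and a lone library assumed to vary like the other groups, these counts ran from 0 to 2, 0 to 1, 0 to 1, 3 to 4 and 3 to 3.

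The replicate numbers of the 2 distinct pairs per cell type were not taken to pair samples (r of their deviations -0.07 in ESC and -0.18 in TSC). With the replicate block, 0 members were called for pausing in ESC (miR-29a-3p adjusted p = 0.0561, miR-148a-3p 0.0509) and 0 for the difference, and with the block within cell type 0 (0.0903 and 0.0901) and 0 as well. With the block crossed in TSC, chosen after seeing the data, 1 member was called in ESC (miR-29a-3p; miR-148a-3p had adjusted p = 0.0621) and 2 between the control cells. There miR-152-3p had adjusted p = 0.0540 with the block within cell type and 0.223 with the crossed block, and miR-148b-3p 0.331 (log2 value 1.01) with the crossed block. The blocks took the 39 miRNAs called in TSC to 20, 12 and 25.

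Over all miRNAs, the 57 called in ESC became 94 with every file as a library and 37 in DESeq2. The 39 called in TSC (4 higher, 35 lower) became 26 with total count scaling (14 higher, 12 lower), 24 with RLE factors (6 higher, 18 lower), 16 with no filter, 16 in DESeq2, 19 with only the groups compared and 7 to 32 with a library left out. The 54 called for the difference (30 higher, 24 lower) became 57 with total count scaling (17 higher, 40 lower), 30 with no filter, 30 in DESeq2, 90 with every file, 31 with the block within cell type and 26 to 65 with a library left out. The 153 between the control cells (69 higher, 84 lower) became 100 with only the groups compared, and 153 with RLE factors (87 higher, 66 lower).

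Signs turned for members that were not called. In TSC with pausing, total count scaling gave 0.15 for miR-29a-3p, 0.27 for miR-29c-3p, 0.42 for miR-148b-3p and 0.27 for miR-152-3p. RLE factors gave 0.00013 for miR-29c-3p, 0.15 for miR-148b-3p and 0.013 for miR-152-3p. No filter gave 0.0069, 0.10, 0.20 and 0.10 in the order of the first list. DESeq2 gave 0.074 for miR-29c-3p and 0.089 for miR-148b-3p, and the block within cell type 0.014 for miR-148b-3p. Libraries left out gave -0.11 to 0.22 for miR-29a-3p, 0.0094 to 0.54 for miR-29c-3p, -0.56 to 0.90 for miR-148b-3p and -1.23 to 0.77 for miR-152-3p. For the difference, total count scaling gave -0.14 for miR-29c-3p and -0.21 for miR-148a-3p, and libraries left out -0.23 to 0.78 for miR-29c-3p, -2.05 to 0.70 for miR-148a-3p and -1.49 to 0.045 for miR-148b-3p. For miR-148b-3p in ESC with pausing they gave -1.06 to 0.069. For miR-148a-3p between the control cells the values were 0.53 (RLE), 0.67 (total count), 0.51 (TMM without the cluster), 0.42 (no filter), 0.032 (filter at 10 CPM), 0.11 (every file), 0.045 (block), 0.41 (block within cell type), 0.76 (crossed block), 0.72 (DESeq2) and -0.049 to 2.56 with a library left out. The cause of these changes was not tested. Control ESC held 1 to 22 counts of each tested member, which limits every comparison with it.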
